A study of Arabidopsis thaliana with 12 samples.

Results

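The 5 wall-associated kinase genes WAK1 (AT1G21250), WAK2 (AT1G21270), WAK3 (AT1G21240), WAK4 (AT1G21210) and WAK5 (AT1G21230) of Arabidopsis thaliana were followed across 4 genotypes. They were taken by gene identifier, with no threshold on their values, as 5 of the 34262 genes in the deposited count table. RNA sequencing had measured transcript levels in rosette leaves, with 3 libraries per genotype and 12 in all. Besides wild-type Col-0, the genotypes were ka120 and 2 double mutants, in which pad4 or ndr1 was added to ka120. All plants shared the Col-0 background, soil, an age of 3 weeks, 22 °C, 16 h of light with 8 h of dark, and no treatment, and every mutant group carried ka120. Single pad4 and ndr1 mutants were not analysed here, and the sources used here do not name the alleles. The labels do not say whether libraries of 1 genotype stem from different plants, so p-values measure only the spread between these samples. The series title names KA120 as a negative regulator of effector-triggered immunity, the response that follows recognition of a pathogen effector inside the cell.

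Wall-associated kinases are receptor-like proteins that sit in the plasma membrane. Their outer region, which carries EGF-like repeats, binds pectin in the cell wall, and their inner region is a serine/threonine kinase. They bind intact pectin during cell expansion and the pectin fragments called oligogalacturonides that wounding or microbial enzymes release. WAK1 is known as an oligogalacturonide receptor and as a gene induced by salicylic acid and by infection, and WAK2 is known for a role in cell expansion and for pectin responses through the kinases MPK3 and MPK6. KA120 is a nuclear transport receptor of the importin beta family. PAD4 acts with EDS1 downstream of one class of intracellular immune receptors, and NDR1 is a membrane protein needed by many receptors of another class.

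The 5 genes lay in 1 cluster on the forward strand of chromosome 1, in the RefSeq annotation of assembly TAIR10.1. Among them lay AT1G21245, between WAK3 and WAK1, and the reverse-strand pseudogenes AT1G21220, between WAK4 and WAK5, and AT1G21260, between WAK1 and WAK2. The cluster ran over 24780 bases, from 7423704 to 7448483, in the order WAK4 (7423704 to 7427041), WAK5 (7429895 to 7432477), WAK3 (7434235 to 7436830), WAK1 (7439171 to 7442113) and WAK2 (7444749 to 7448483). Aligned coding sequences were identical at 78.3% of bases between WAK4 and WAK5, the least alike pair, and at 85.2% between WAK1 and WAK3, the most alike pair. The 60 coding bases below, bases 1948 to 2007 of the WAK1 coding sequence, are shown because they bear on how reads can be assigned. They lie within 1 exon of each gene. They were read on the forward strand at chr1:7441632-7441691 (WAK1), chr1:7447079-7447138 (WAK2), chr1:7436442-7436501 (WAK3), chr1:7426775-7426834 (WAK4) and chr1:7432089-7432148 (WAK5), and capitals mark bases unlike WAK1.
WAK1: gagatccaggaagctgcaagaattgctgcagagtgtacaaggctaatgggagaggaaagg
WAK2: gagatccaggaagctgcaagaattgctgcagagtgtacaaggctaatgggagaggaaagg
WAK3: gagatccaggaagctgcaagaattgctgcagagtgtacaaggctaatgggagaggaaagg
WAK4: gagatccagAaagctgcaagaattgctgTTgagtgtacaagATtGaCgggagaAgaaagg
WAK5: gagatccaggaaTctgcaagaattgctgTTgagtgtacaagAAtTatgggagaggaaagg
All 60 bases were the same in WAK1, WAK2 and WAK3, whereas WAK4 differed from WAK1 at 8 bases and WAK5 at 6. Over all exon windows of 50 bases, 7.40% in WAK1, 3.78% in WAK2, 13.4% in WAK3, 0.895% in WAK4 and 0.484% in WAK5 had an exact copy elsewhere in the genome. At 150 bases, the length of each sequenced end, no window of WAK1, WAK2, WAK4 or WAK5 had an exact copy. Of the 1975 such windows of WAK3, 148 (7.49%) did, and 145 of these copies lay in AT1G21245, a gene from 7436842 to 7437342 that starts just past the end of WAK3. The counts of WAK3 and AT1G21245 are therefore uncertain where reads fall in the shared stretch. The annotated last 994 bases of WAK2 overlap AT1G21280 on the reverse strand. The libraries were strand-specific per the labels' protocols, but the sources used here do not say whether the counting used the strand.

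**Figure D1:**
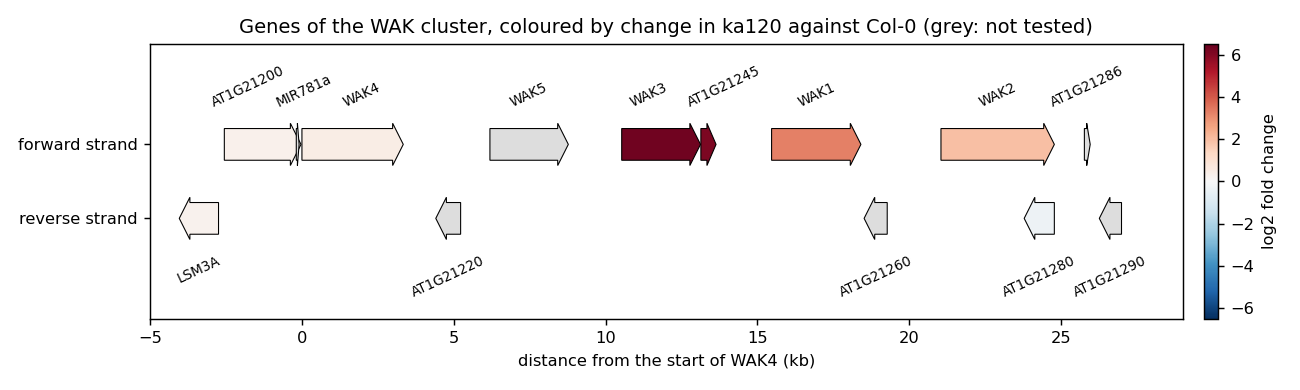
Map of the annotated genes around the WAK cluster, drawn to scale as distance in kb from the start of WAK4, with arrows pointing in the direction of transcription and colour giving the fitted log2 fold change in ka120 against Col-0. The darkest red falls on WAK3 (6.33) and AT1G21245 (6.10), and WAK5 is grey because it had no count and could not be tested.

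The 300 bases before the annotated starts of WAK1, WAK2 and WAK3 are shown because transcripts of these 3 genes rose together in the mutants, as described below. The windows are chr1:7438871-7439170 (WAK1), chr1:7444449-7444748 (WAK2) and chr1:7433935-7434234 (WAK3) of TAIR10.1, forward strand. Capitals mark matches on either strand to TTGAC, the core of the W-box bound by WRKY factors, and to TGACG, the core of the site bound by TGA factors.
WAK1: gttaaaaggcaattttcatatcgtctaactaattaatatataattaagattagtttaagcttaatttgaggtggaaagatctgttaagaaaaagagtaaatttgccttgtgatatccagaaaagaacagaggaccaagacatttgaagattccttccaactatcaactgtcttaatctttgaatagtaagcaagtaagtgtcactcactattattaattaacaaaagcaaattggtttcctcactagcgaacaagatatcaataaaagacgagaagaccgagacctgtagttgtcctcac
WAK2: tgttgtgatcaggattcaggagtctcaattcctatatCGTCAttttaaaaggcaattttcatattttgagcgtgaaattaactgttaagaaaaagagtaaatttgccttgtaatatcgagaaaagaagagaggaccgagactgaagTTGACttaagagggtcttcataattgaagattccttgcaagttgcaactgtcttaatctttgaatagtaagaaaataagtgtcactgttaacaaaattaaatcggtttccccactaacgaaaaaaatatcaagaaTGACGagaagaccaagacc
WAK3: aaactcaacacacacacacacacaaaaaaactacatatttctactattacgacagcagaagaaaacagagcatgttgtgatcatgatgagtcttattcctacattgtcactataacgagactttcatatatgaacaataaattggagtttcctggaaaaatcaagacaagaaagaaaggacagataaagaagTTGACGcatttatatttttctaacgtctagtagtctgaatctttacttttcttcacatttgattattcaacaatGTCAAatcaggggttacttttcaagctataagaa
The WAK1 window held neither motif. The WAK2 window held 1 TTGAC and 2 TGACG matches that did not overlap. The WAK3 window held 2 TTGAC matches and 1 TGACG match, and 1 TTGAC match overlapped the TGACG match. The windows before WAK4 and WAK5 held 1 TTGAC match each and no TGACG. Among the same windows of 27443 annotated genes, 50.4% held TTGAC and 21.3% held TGACG, so single matches were common, and 17.9% and 3.99% held at least 2. These matches describe the letters of each window and do not show that a factor binds there.

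Library totals ranged from 68436911 to 85884840 counts, with 23074 to 24423 genes above 0, and the correlation of log2 levels between libraries of a genotype was 0.976 to 0.983. The mutated loci were checked first. KA120 fell from 29.2 ± 4.48 CPM (normalised counts, scaled to the effective library size, mean ± SD, n = 3 as for all levels below) in Col-0 to 5.28 ± 0.663, 4.14 ± 0.615 and 5.01 ± 0.43 in ka120, ka120 pad4 and ka120 ndr1. NDR1 was at 13.1 ± 1.52 CPM in ka120 and at 0.0874 ± 0.0835 CPM in ka120 ndr1. PAD4 was at 5.13 ± 0.482 CPM in Col-0, 85.1 ± 27.1 in ka120 and 12.7 ± 5.82 in ka120 pad4, so its transcript was lower than in ka120 but still above Col-0. Summed CPM of 5 photosynthesis genes used as leaf markers was 36509 to 38421 over the Col-0 libraries. It was 19327 to 22545 for ka120, 24049 to 28723 for ka120 pad4 and 22623 to 24583 for ka120 ndr1, and all 5 fell in ka120. Summed root markers differed little, at 51.5 to 59.5 CPM in Col-0 and 51.2 to 59.3 CPM over the mutants. Most of this sum was SCR and SHR (means of 40.4 and 15.6 CPM in Col-0), so it hides the low members. WOX5 had 4, 0 and 0 counts in Col-0 and 22, 26 and 32 in ka120. It was called higher there (3.73 ± 0.82, edgeR adjusted p = 0.00212), with pad4 added (4.31, 0.00117) and with ndr1 added (4.18, 0.00116). COBL9 pointed lower in each mutant without passing (edgeR adjusted p = 0.0748 to 0.311), and the root hair factor RHD6 was at 0 in every library. Flower markers summed to 1.47 to 3.03 CPM in Col-0 and 3.23 to 7.52 CPM over the mutants, guard cell markers to 72.9 to 79.1 and 60.02 to 77.2 CPM, and vascular markers to 458 to 566 and 281 to 409 CPM. Of the flower markers, PI and AG were called higher in ka120 and AP3 was not. AP1, too low to be tested, had 0, 16 and 12 counts in Col-0 and 0 in every ka120 library. Guard cell markers summed to 60.02 to 68.4 CPM in ka120, below every Col-0 library. Of these markers, FAMA, MYB60 and HT1 were called lower in ka120 and KAT1 was not. Among the vascular markers, SUC2 and AHA3 were called lower in ka120 and APL was not. Whether these marker shifts play a part in the WAK values was not tested. In such bulk tissue, fewer cells of a type and less RNA per cell cannot be told apart.

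Transcripts of WAK1, WAK2 and WAK3 were higher in ka120 leaves than in wild-type leaves, WAK3 by the largest factor and WAK2 by the smallest of the 3. WAK4 was barely counted and did not pass the test, and WAK5 had no count in any library. The comparison asks what loss of KA120 does to leaf transcripts without infection. Of the 4 members with enough counts to be tested, 3 rose and 0 fell. Over all 22351 genes tested, 28.0% rose and 27.0% fell in this comparison (54.9% either way), so a call alone was common here.

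WAK1, the oligogalacturonide receptor, stood at 37.1, 36.4 and 56.9 CPM in the 3 Col-0 libraries and at 466, 454 and 324 CPM in the ka120 libraries. The lowest ka120 library lay far above the highest Col-0 library. Behind these levels were 2161 to 4013 counts per library in Col-0 and 28553 to 42605 in ka120. The means, 43.5 ± 11.6 and 415 ± 78.3 CPM, differed 9.54-fold, and the fitted log2 fold change was 3.25 ± 0.30 (approximate SE, adjusted p = 2.39e-06 by edgeR's quasi-likelihood test).

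WAK2, tied to cell expansion, stood at 39.7, 35.8 and 49.7 CPM in Col-0 and at 179, 181 and 128 CPM in ka120. Again the groups did not overlap, and the third ka120 library was the lowest of its group. The means of 41.7 ± 7.16 and 163 ± 30.2 CPM differed 3.91-fold, with a log2 fold change of 1.97 ± 0.22 (edgeR adjusted p = 1.23e-05).

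WAK3, the middle gene of the cluster, was nearly off in Col-0, with 26, 86 and 24 counts. These counts correspond to 0.423, 1.45 and 0.340 CPM, so the second Col-0 library was 4.26 times as high as the lowest. In ka120 the counts were 5517, 6400 and 3686, or 64.8, 68.2 and 41.9 CPM. All 3 ka120 libraries were far above all 3 Col-0 libraries. The log2 fold change was 6.33 ± 0.48 (edgeR adjusted p = 4.76e-07), from a mean of 0.738 ± 0.618 to 58.3 ± 14.3 CPM. Its size rests on the few Col-0 counts, and without Col-0 replicate 2 it was 7.26 (adjusted p = 1.00e-06).

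WAK4 had 10, 20 and 12 counts in Col-0 and 41, 7 and 34 in ka120. The 2 groups overlapped, since the second ka120 library was the lowest of the 6. Its log2 fold change of 0.49 ± 1.00 did not pass (edgeR adjusted p = 0.704), and at 0.223 ± 0.0986 and 0.314 ± 0.213 CPM a change in WAK4 was not detectable in these libraries. WAK5 had 0 counts in all 12 libraries, which allows a level of up to 0.0319 to 0.0506 CPM, the value of 3 counts at the largest and the smallest effective library size. This limit covers counting error only and takes 1 read to add 1 count. Multiples of 4 made up 45.7% to 48.1% of each library's values between 4 and 40, and if counts come in steps of 4 the limit is higher in proportion. The median log2 fold change of the 4 tested members was 2.61, beside 0.02 over all tested genes.

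**Figure D2:**
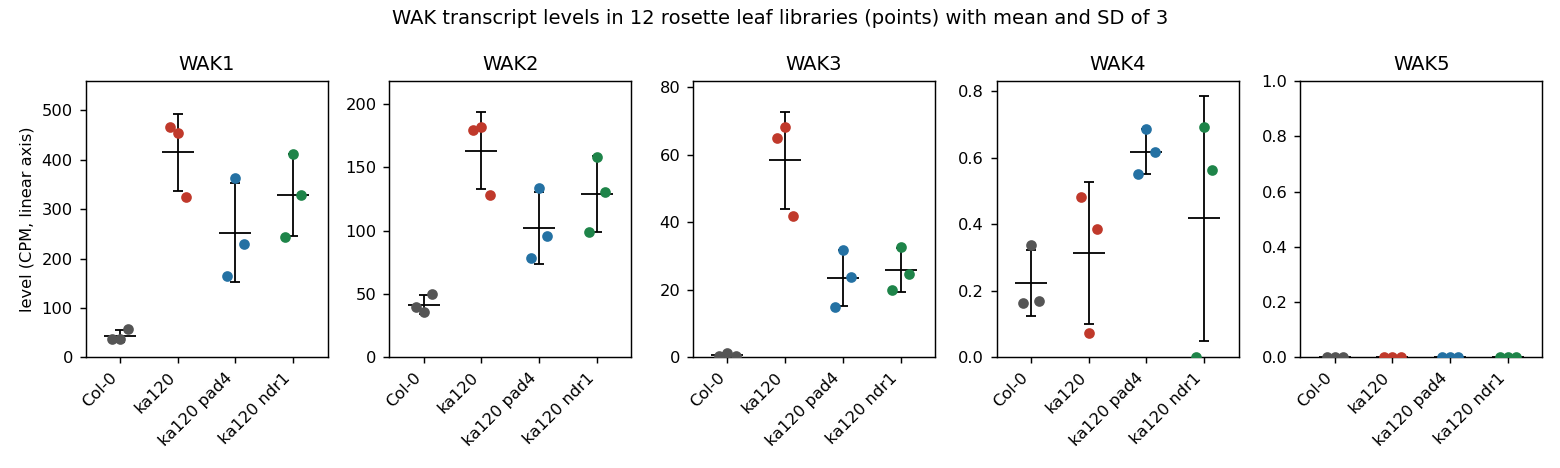
Level of each WAK gene in CPM on linear axes that start at 0, with a scale of its own in each panel. Points are the 12 libraries, and horizontal lines with bars are means with SD of 3. WAK1, WAK2 and WAK3 are lowest in all 3 Col-0 libraries, WAK4 stays below 0.7 CPM, and WAK5 is at 0 throughout.

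The next comparison asks how much of this remains when PAD4 is also mutated. WAK2 and WAK3 transcripts were lower in ka120 pad4 than in ka120, and WAK1 pointed the same way without passing the test. Of the 4 tested members, 0 rose and 2 fell, beside 9.83% rising and 8.39% falling (18.2% either way) over all genes tested. The 2 calls were marginal, since neither held once replicate 1 or 2 of ka120, or replicate 1 or 3 of ka120 pad4, was left out.

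WAK3 stood at 15.0, 31.8 and 23.8 CPM in the ka120 pad4 libraries. All 3 values lay below the lowest ka120 library, at 41.9 CPM. The mean was 23.5 ± 8.37 CPM, and the log2 fold change against ka120 was -1.31 ± 0.36 (edgeR adjusted p = 0.0243, and 0.0744 to 0.0926 without the libraries just named). It did not pass with DESeq2 (0.0520) or with limma on the deposited log2 values (0.0595).

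WAK2 stood at 78.0, 133 and 95.4 CPM in ka120 pad4. The second library was the highest and lay above the lowest ka120 library, at 128 CPM, so the groups overlapped. The mean was 102 ± 28.2 CPM, and the log2 fold change was -0.67 ± 0.22 (edgeR adjusted p = 0.0486). This call was kept in 11 of 22 alternative settings and lost, among others, without any 1 of the 3 Col-0 libraries (adjusted p = 0.0646, 0.0551 and 0.0514) or without ka120 ndr1 replicate 3 (0.0649).

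WAK1 stood at 165, 362 and 229 CPM in ka120 pad4, the widest spread of this gene in any genotype. The highest of these lay above the lowest ka120 library. The log2 fold change of -0.72 ± 0.28 did not pass (edgeR adjusted p = 0.0955), but it did without ka120 pad4 replicate 2 (-1.07, adjusted p = 0.0129). WAK4 had 40, 51 and 45 counts in ka120 pad4, at 0.619 ± 0.0668 CPM, and its log2 fold change of 0.98 ± 0.95 did not pass (edgeR adjusted p = 0.543). The median over the 4 tested members was -0.70, beside 0.00 over all genes.

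When NDR1 was mutated together with KA120, no WAK gene passed the test against ka120 (0 of 4 in edgeR, DESeq2 and limma alike). Of the 4, 1 (WAK3) had an unadjusted p under 0.05 in edgeR, beside 5229 of all 22351 genes. Over all genes, 3.20% rose and 2.74% fell (5.94% either way), so few genes of any kind were called in this comparison. WAK3 was nevertheless at 19.9, 32.8 and 24.8 CPM in ka120 ndr1, and all 3 libraries lay below the lowest ka120 library. Its log2 fold change was -1.18 ± 0.35 (edgeR adjusted p = 0.0705), and 5 of 22 alternative settings called it, among them the fit that left out Col-0 replicate 2 (0.0338) and the fit that left out ka120 replicate 3 (0.0407).

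WAK1 stood at 244, 411 and 329 CPM in ka120 ndr1, and WAK2 at 98.7, 158 and 130 CPM. Both overlapped ka120. Their log2 fold changes were both -0.34, with SEs of 0.28 and 0.22 (edgeR adjusted p = 0.505 and 0.379). WAK4 had 0, 50 and 47 counts, so the first library stood apart from the other two, and its log2 fold change of 0.41 ± 0.96 did not pass (edgeR adjusted p = 0.841). The median over the 4 tested members was -0.34, beside 0.00 over all genes.

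Against the wild type, WAK1, WAK2 and WAK3 remained higher in both double mutants. In ka120 pad4, 3 of the 4 tested members rose, beside 21.6% of all genes rising and 20.3% falling (42.0% either way). The log2 fold changes were 2.53 ± 0.29 for WAK1 (edgeR adjusted p = 3.07e-05), 1.29 ± 0.22 for WAK2 (0.000528) and 5.02 ± 0.46 for WAK3 (5.59e-06). WAK4 in ka120 pad4 lay above Col-0 in all 3 libraries, yet at 40 to 51 against 10 to 20 counts its log2 fold change of 1.47 ± 0.99 did not pass (edgeR adjusted p = 0.259). In ka120 ndr1, 3 of 4 rose, beside 24.9% of all genes rising and 23.5% falling (48.4% either way). The log2 fold changes there were 2.91 ± 0.30 for WAK1 (edgeR adjusted p = 8.46e-06), 1.63 ± 0.22 for WAK2 (7.63e-05) and 5.16 ± 0.46 for WAK3 (3.19e-06), and 0.90 ± 0.99 for WAK4 did not pass (0.483). Without Col-0 replicate 2, the WAK3 values were 5.95 in ka120 pad4 and 6.08 in ka120 ndr1. These comparisons share the Col-0 libraries with each other and with the ka120 comparison, so they are given side by side. The calls of WAK1, WAK2 and WAK3 against Col-0 held in all 22 alternative settings in each of the 3 mutants.

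Set against each other, the double mutants differed in no WAK gene past the test, with 0 of 4 called by edgeR, DESeq2 or limma. In edgeR, 0 of 4 had an unadjusted p under 0.05, beside 4012 of all 22351 genes. The log2 fold changes in ka120 pad4 against ka120 ndr1 were -0.38 ± 0.28 for WAK1, -0.34 ± 0.22 for WAK2, -0.13 ± 0.35 for WAK3 and 0.57 ± 0.95 for WAK4 (edgeR adjusted p = 0.455 to 0.893), with overlapping libraries in all 4. Over all genes 1.51% were higher and 0.886% lower (2.39% either way). From low to high, the mean levels of WAK1, WAK2 and WAK3 ran Col-0, ka120 pad4, ka120 ndr1, ka120. For all 3 genes, the step from Col-0 to ka120 pad4 passed the test, and the steps from ka120 pad4 to ka120 ndr1 and from ka120 ndr1 to ka120 did not.

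**Figure D3:**
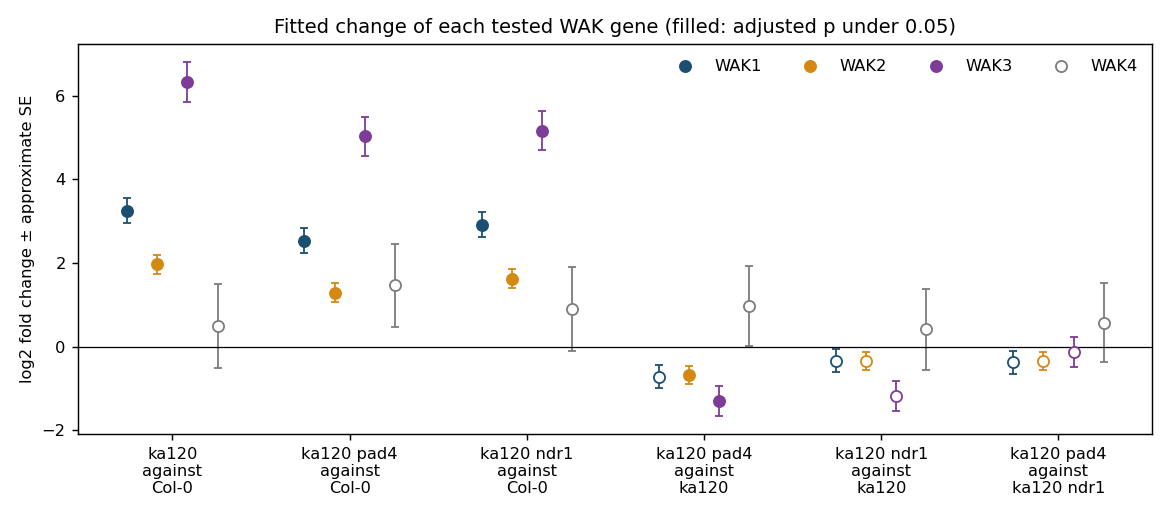
Fitted log2 fold change with approximate SE of the 4 tested WAK genes in the 6 comparisons, with filled points for an adjusted p under 0.05. All changes of WAK1, WAK2 and WAK3 against Col-0 lie well above 0, and against ka120 only WAK2 and WAK3 in ka120 pad4 are filled.

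The members did not rise in proportion, and the make-up of the cluster's transcripts shifted. To set genes against each other, CPM was divided by exon length in kb. In Col-0, WAK1 was at 15.7 ± 4.20, WAK2 at 11.6 ± 2.00, WAK3 at 0.305 ± 0.255 and WAK4 at 0.0747 ± 0.0330 CPM per kb. In ka120 the same genes were at 149.7 ± 28.3, 45.5 ± 8.44, 24.1 ± 5.90 and 0.105 ± 0.0712 CPM per kb. On this scale WAK1 led in every genotype, with 54.2% to 59.4% of the summed level in the Col-0 libraries and 67.5% to 72.1% over the 9 mutant libraries. WAK2 held 40.1% to 44.8% of the sum in Col-0 libraries, against 20.4% to 24.8% over the mutants. The lead in Col-0 rests on the division by length, since on the CPM scale WAK1 and WAK2 held 50.1% and 48.7% there and WAK2 was the higher in Col-0 replicate 1. WAK3 held 0.406% to 2.51% of the sum in Col-0. In ka120 it held 10.2% to 11.6%, with pad4 added 7.07% to 8.23%, and with ndr1 added 6.18% to 6.64%, with no overlap between any pair of genotypes.

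The ratio of WAK1 to WAK2, both on the scale of CPM per kb, was 1.21, 1.32 and 1.48 in the Col-0 libraries. It was 3.36, 3.24 and 3.28 in ka120, 2.74, 3.51 and 3.10 with pad4 added, and 3.20, 3.36 and 3.27 with ndr1 added. The mutant values overlapped each other and lay apart from Col-0. The ratio of WAK1 to WAK3 ran from 22.0 to 146 in Col-0, where WAK3 had few counts. It ran from 5.82 to 6.77 in ka120, from 8.42 to 9.96 with pad4 added and from 10.7 to 11.6 with ndr1 added, again with no overlap. The ratio of WAK3 to WAK2 ran from 0.0101 to 0.0599 in Col-0 and from 0.484 to 0.556 in ka120. It ran from 0.285 to 0.369 with pad4 added and from 0.282 to 0.306 with ndr1 added. In this ratio the double mutants overlapped (exact permutation p = 0.3), while every other pair of genotypes lay apart. With 3 libraries against 3, a 2-sided exact permutation test cannot go below p = 0.1, and each of these separations reached that value (0.129 after adjustment over 18 tests), so none can pass a threshold of 0.05.

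**Figure D4:**
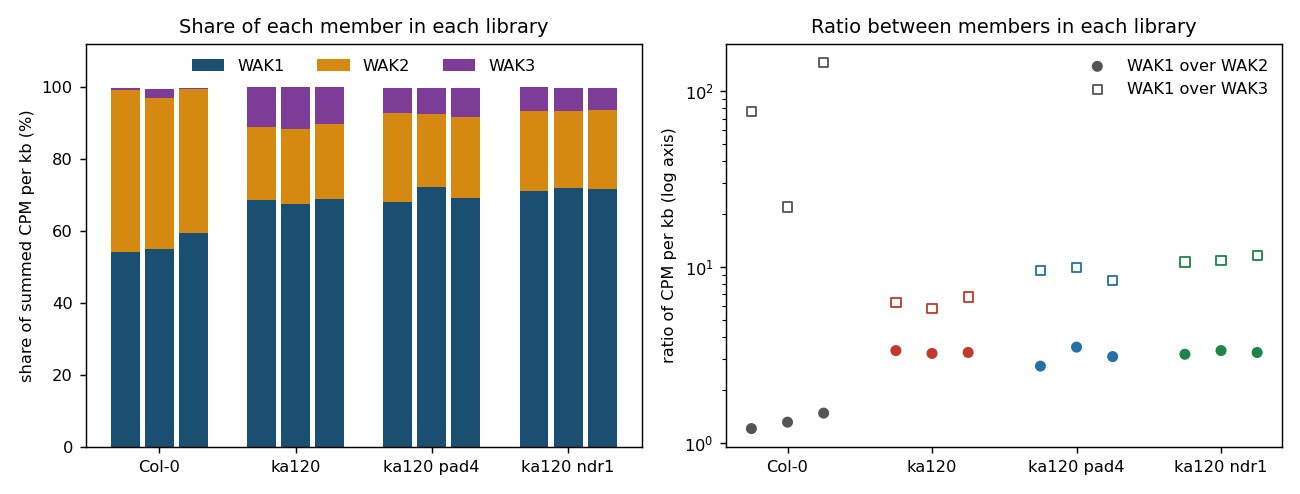
Left, share of each WAK gene in the summed CPM per kb of every library, in percent, with 3 bars per genotype. Right, ratios of CPM per kb on a log axis, with filled circles for WAK1 over WAK2 and open squares for WAK1 over WAK3. WAK2 holds over 40% in Col-0 and under 25% in every mutant library, and the open squares step up from ka120 to ka120 pad4 to ka120 ndr1.

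Within each mutant genotype, WAK1, WAK2 and WAK3 had their lowest library in common. It was replicate 3 in ka120 and replicate 1 in both double mutants, where replicate 2 was the highest for all 3. WAK4 had the same lowest and highest libraries in the double mutants but not in ka120, where its lowest was replicate 2 (7 counts), the highest library of WAK2 and WAK3. In Col-0, replicate 3 was the highest for WAK1 and WAK2 and the lowest for WAK3, and WAK4 was highest in replicate 2. The highest library of WAK1 was 1.56 times the lowest in Col-0, 1.44 times in ka120, 2.19 times with pad4 added and 1.68 times with ndr1 added. Replicate numbers name samples here and give no order.

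Over all 12 libraries, Pearson's r of log2 CPM was 0.988 between WAK1 and WAK2, 0.955 between WAK1 and WAK3, 0.927 between WAK2 and WAK3, and 0.151 to 0.178 between WAK4 and these 3. The libraries fall into genotype groups that set much of each r, so these values only describe likeness. Many genes were more alike: among tested genes, WAK2 ranked 76 and WAK3 706 in likeness to WAK1. In likeness to WAK2, WAK3 ranked 1242. Outside the cluster, the genes most like WAK1 were AT5G08760, NAC090, a NAC transcription factor, and AT1G24145, each with r = 0.996. NAC090 was at 0.112 ± 0.0504 CPM in Col-0, and its mean was 8.49 ± 3.10 CPM in ka120. With pad4 added NAC090 stood at 4.34 ± 3.13 CPM, and with ndr1 added at 7.20 ± 3.64 CPM. Most like WAK2 were CRK12, a cysteine-rich receptor-like kinase (r = 0.994), CAD1, a phytochelatin synthase (0.994), and FH4, a formin (0.993). CRK12 was at 1.88 ± 0.521, 12.1 ± 2.43, 5.90 ± 1.54 and 8.28 ± 2.00 CPM in Col-0, ka120 and the pad4 and ndr1 double mutants, in that order. Most like WAK3 were S6K2, a kinase of ribosomal protein S6 (0.997), AT4G39670 (0.996) and AT5G20400 (0.995). S6K2 was at 5.69 ± 1.43, 26.3 ± 4.60, 19.5 ± 1.54 and 19.5 ± 1.63 CPM in the same order. For WAK4 the closest were AT2G43780 (0.888), AT1G09903 (0.872) and FAS4 (0.860).

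The neighbours of the cluster were taken by position. AT1G21245, whose sequence is shared in part with WAK3, had 4, 0 and 0 counts in Col-0 and 157, 155 and 103 in ka120, with 28 to 82 in ka120 pad4 and 43 to 51 in ka120 ndr1. It rose in all 3 mutants against Col-0, with a log2 fold change of 6.10 ± 0.78 in ka120 (edgeR adjusted p = 3.17e-05), a size that depends on the near-empty Col-0 libraries (9.92 without Col-0 replicate 1 and 5.49 without replicate 3). AT1G21280, opposite the end of WAK2, fell from 8.70 ± 0.731 to 6.93 ± 0.353 CPM in ka120 (log2 fold change -0.33 ± 0.10, edgeR adjusted p = 0.0126, and 0.0505 without ka120 replicate 3). LSM3A, a subunit of an RNA-binding Sm-like complex, rose by 0.30 ± 0.12 (adjusted p = 0.0459), a call kept in 15 of 22 alternative settings and lost without any 1 of the Col-0 libraries (0.0638 to 0.146), ka120 replicate 1 (0.136) or 2 (0.108), or ka120 ndr1 replicate 1 (0.0559). AT1G21200 was at 8.67 ± 1.60 CPM in Col-0 and 10.8 ± 0.531 CPM in ka120 and did not pass (0.31 ± 0.14, adjusted p = 0.0858).

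Other genes of the family and of pectin sensing were taken from lists drawn up from textbook knowledge, with earlier results of these data known. The WAK-like genes encode related receptor-like kinases elsewhere in the genome. Of 20 members 14 could be tested, and in ka120 against Col-0 7 rose and 1 fell, beside 28.0% and 27.0% of all genes, with a median log2 fold change of 0.79. The share called was thus close to the 54.9% over all genes. WAKL6 rose from 2.44 ± 0.192 to 8.92 ± 1.49 CPM (1.87 ± 0.30, edgeR adjusted p = 0.000219), and WAKL2 from 0.293 ± 0.029 to 1.02 ± 0.134 CPM (1.79 ± 0.45, adjusted p = 0.00475). WAKL4, with 9, 0 and 0 counts in Col-0 and 32, 20 and 24 in ka120, was called (2.54 ± 0.99, adjusted p = 0.0455) but kept that call in 7 of 20 alternative settings. It lost the call when any 1 library other than Col-0 replicate 1 was left out (adjusted p = 0.0624 to 0.131), and without Col-0 replicate 1 its log2 fold change was 7.49 (0.000994). WAKL18 fell, from 20 to 48 counts in Col-0 to 0, 0 and 4 in ka120 (-4.83 ± 1.38, adjusted p = 0.0101), with -4.20 when Col-0 replicate 2 was left out and -8.16 when ka120 replicate 3 was left out. WAKL8, WAKL9, WAKL14 and WAKL21 also rose, by 0.72 to 0.94, of which WAKL21 lost its call without Col-0 replicate 3 (adjusted p = 0.110) or ka120 replicate 2 (0.0888). RFO1, a WAK-like gene known for resistance to the wilt fungus Fusarium oxysporum, was at 13.7 ± 2.15 and 14.3 ± 1.56 CPM and did not pass (0.06 ± 0.13, adjusted p = 0.721).

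In ka120 pad4 against ka120, 0 WAK-like genes rose and 3 of 14 fell, beside 9.83% rising and 8.39% falling over all genes. The share called either way was near the 18.2% of all genes, and the median was -0.17. WAKL8 fell from 49.0 ± 2.40 to 23.7 ± 6.42 CPM (-1.05 ± 0.18, edgeR adjusted p = 0.00274), near its Col-0 mean of 26.4 ± 1.56 CPM. Its ka120 pad4 and Col-0 libraries overlapped, and that difference did not pass (-0.15 ± 0.17, edgeR adjusted p = 0.511). WAKL6 fell by 1.23 (adjusted p = 0.0130) and WAKL9 by 0.52 (0.00626), and the WAKL6 call was lost without ka120 replicate 1 (0.0526) or ka120 pad4 replicate 1 (0.0574) or 3 (0.0577). In ka120 ndr1 against ka120, 0 of 14 passed in edgeR, 0 in limma and 1 in DESeq2, which called 2576 of 22119 genes. Of the 14, 1 (WAKL9) had an unadjusted p under 0.05 in edgeR, beside 5229 of all 22351 genes. The median was -0.09. Against Col-0, 3 rose and 0 fell in ka120 pad4, while 6 rose and 1 fell in ka120 ndr1, beside 42.0% and 48.4% of all genes called either way. The 3 in ka120 pad4 were WAKL2, WAKL9 and WAKL10. WAKL10 had 5, 0 and 5 counts in Col-0 and 5, 17 and 81 in ka120 pad4, and its log2 fold change of 3.15 (edgeR adjusted p = 0.0319) dropped to 1.51 (0.273) without the third ka120 pad4 library and did not pass without any 1 Col-0 library (0.0569 to 0.0888). The 1 that fell in ka120 ndr1 was WAKL18 (-3.16, adjusted p = 0.0464), which lost its call when any 1 library other than ka120 pad4 replicate 2 was left out (0.0518 to 0.163). Of the 6 that rose in ka120 ndr1, WAKL2 was lost without ka120 ndr1 replicate 2 (0.0845). WAKL21 was lost without Col-0 replicate 2 (0.0657) or 3 (0.144), any 1 ka120 library (0.0502 to 0.0527), ka120 pad4 replicate 1 (0.0510) or 3 (0.0513), or ka120 ndr1 replicate 2 (0.196) or 3 (0.0755).

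The list of WAK partners and of genes for oligogalacturonide signalling had 18 members, of which 16 could be tested. In ka120 against Col-0, 5 rose and 4 fell, again close to the 54.9% called over all genes, and the median was 0.04. GRP3, a glycine-rich wall protein that binds the outer region of WAK1, was at 25812, 8562 and 29456 counts in Col-0 and at 129569, 155242 and 130755 in ka120. The second Col-0 library was the lowest, and the groups did not overlap. The means were 327 ± 158 and 1553 ± 88.2 CPM, with a log2 fold change of 2.25 ± 0.32 (edgeR adjusted p = 7.88e-05), and 1.68 ± 0.31 and 1.78 ± 0.32 in ka120 pad4 and ka120 ndr1 against Col-0 (0.00104 and 0.000562). KAPP, a phosphatase that binds the kinase region of WAK1, did not pass (0.12 ± 0.08, adjusted p = 0.217).

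Among the kinases of the response, MPK3 rose from 42.4 ± 2.48 to 103 ± 23.5 CPM (1.28 ± 0.20, edgeR adjusted p = 0.000163), while its relative MPK6 was at 40.4 ± 1.70 and 39.8 ± 4.19 CPM (-0.02 ± 0.07, adjusted p = 0.845). The calcium-dependent kinase CPK6 rose from 8.37 ± 0.354 to 28.4 ± 3.11 CPM (1.76 ± 0.15, edgeR adjusted p = 9.80e-07) and CPK5 rose by 0.61 ± 0.11 (0.000617). CPK11 fell by 0.18 (adjusted p = 0.0427), a call kept in 8 of 22 alternative settings and lost when any 1 library other than Col-0 replicate 1 or ka120 pad4 replicate 2 was left out (0.0521 to 0.192). RBOHD, the oxidase of the immune oxidative burst, did not pass (-0.12 ± 0.08, adjusted p = 0.197). OGOX1, an oxidase that inactivates oligogalacturonides, rose by 1.34 ± 0.20 (edgeR adjusted p = 0.000103), while OGOX2, of the same family, fell by 1.14 (2.07e-05). PGIP2, an inhibitor of fungal pectin-cleaving enzymes, fell from 16.9 ± 3.14 to 6.30 ± 0.957 CPM (-1.42 ± 0.23, adjusted p = 0.000258). The vacuolar invertase gene, which depends on WAK2 in roots, fell by 1.12 (adjusted p = 1.38e-05).

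In ka120 pad4 against ka120, 2 of 16 partners rose and 2 fell, beside 18.2% of all genes called either way, with a median of -0.12. CPK5 and CPK6 fell, by 0.40 and 0.57 (edgeR adjusted p = 0.0271 and 0.0153), and OGOX2 and RBOHD rose, by 0.55 and 0.26 (0.0164 and 0.0363). Each of these 4 calls was lost in some alternative settings, with 17, 18, 17 and 14 of 22 keeping the call of CPK5, CPK6, OGOX2 and RBOHD. CPK5, CPK6 and OGOX2 all lost it without ka120 replicate 2 (0.125, 0.0754 and 0.0748), ka120 pad4 replicate 1 (0.0979, 0.0648 and 0.0694) or ka120 pad4 replicate 3 (0.0681, 0.0683 and 0.0596), and CPK5 and OGOX2 also without ka120 replicate 1 (0.0936 and 0.0564). RBOHD lost it without any 1 ka120 library (0.0605 to 0.121), Col-0 replicate 3 (0.0516), ka120 pad4 replicate 1 (0.0687) or 3 (0.144), or ka120 ndr1 replicate 3 (0.0579). In ka120 ndr1 against ka120, 0 of 16 passed in edgeR, and 0 in DESeq2 and in limma. There, 4 of the 16 (CPK6, MPK3, OGOX2 and PGIP1) had an unadjusted p under 0.05 in edgeR, beside 5229 of all 22351 genes. The median was -0.03.

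**Figure D5:**
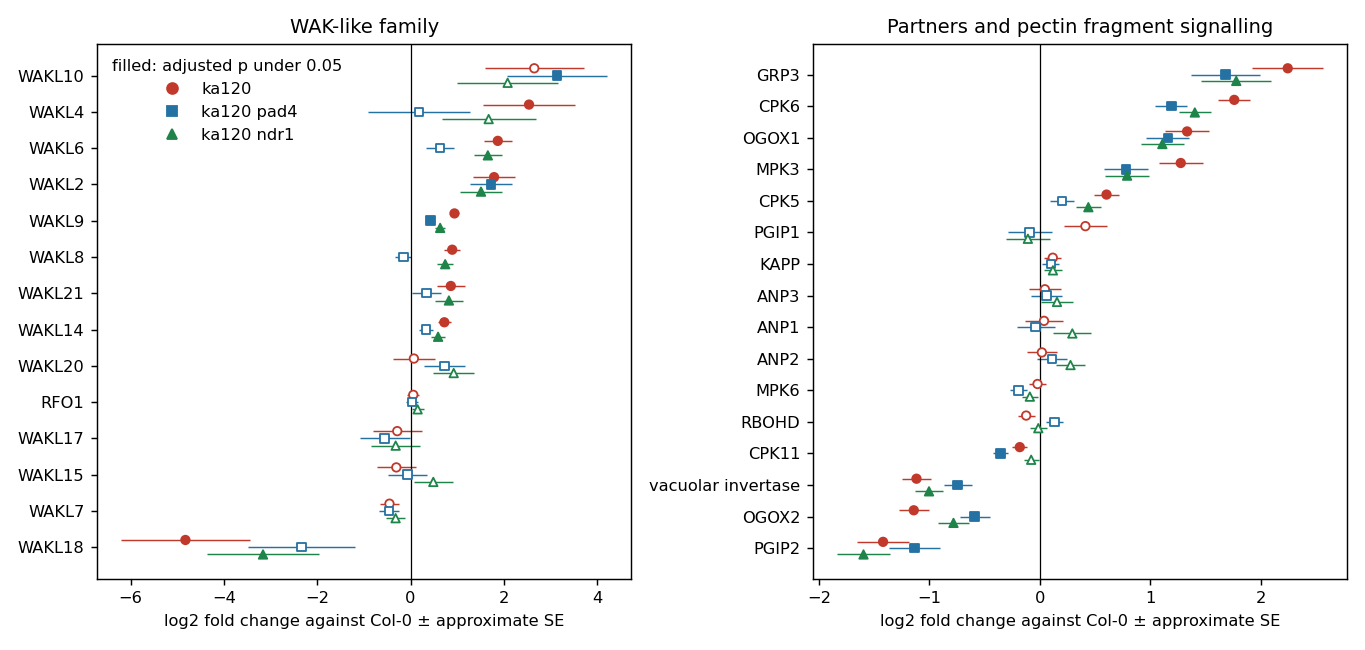
Fitted log2 fold change against Col-0 with approximate SE for the tested WAK-like genes (left) and the tested partners and pectin fragment signalling genes (right), with circles for ka120, squares for ka120 pad4 and triangles for ka120 ndr1, filled for an adjusted p under 0.05. The 3 genotypes share the Col-0 libraries. WAKL8 is near 0 in ka120 pad4 (-0.15) and above 0 in ka120 (0.89) and ka120 ndr1 (0.74).

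Of 7 listed receptor kinases that sense the wall by other routes, 6 were tested. In ka120 against Col-0, 0 rose and 3 fell, beside 28.0% and 27.0% of all genes (54.9% either way), with a median of -0.50. HERK1 and HERK2, relatives of FERONIA that act in cell elongation, fell by 0.66 and 0.59 (edgeR adjusted p = 2.07e-05 and 0.00240), and DORN1, the receptor of extracellular ATP, fell by 0.52 (0.000509). In ka120 pad4 against ka120, 2 of the 6 rose and 0 fell (18.2% of all genes were called either way), and in ka120 ndr1 against ka120 1 rose (5.94% either way). DORN1 rose in the first (edgeR adjusted p = 0.0195), a call lost without ka120 replicate 1 (0.0920) or ka120 pad4 replicate 1 (0.0789) or 3 (0.0656). THE1, a sensor of cellulose loss, rose in both, by 0.60 ± 0.09 (edgeR adjusted p = 0.00152) and 0.40 ± 0.09 (0.0242). The second of these calls was lost without ka120 replicate 1 (0.0981) or 2 (0.114) or any 1 ka120 ndr1 library (0.0614 to 0.0762).

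Pectin itself is made and altered by the last group, which held 16 genes with 13 tested. In ka120 against Col-0, 4 rose and 6 fell, beside 28.0% and 27.0% of all genes, with a median of -0.26. Among the pectin methylesterases, which remove methyl groups from pectin, PME41 rose from 2.65 ± 0.469 to 18.5 ± 1.69 CPM (2.80 ± 0.24, edgeR adjusted p = 1.23e-06), while PME2 fell from 88, 42 and 74 counts to 9, 4 and 0 (-4.39 ± 0.94, adjusted p = 0.00421, and -5.50 without ka120 replicate 1). PME17 rose from 0, 16 and 4 to 256, 520 and 146 counts (4.98 ± 1.49, adjusted p = 0.0132, 0.0504 without Col-0 replicate 3, and a log2 fold change of 6.75 without Col-0 replicate 2). The inhibitor gene PMEI10 fell, from 48, 58 and 90 counts to 26, 44 and 26 (adjusted p = 0.0292), a call lost without Col-0 replicate 2 (0.0528) or 3 (0.0924) or ka120 replicate 1 (0.0870) or 3 (0.0837). In ka120 pad4 against ka120, 5 rose and 1 fell, beside 9.83% and 8.39% of all genes, with a median of 0.17. Of these 6 calls, 2 (PME3 and PMEPCRA, both higher) held in all alternative settings. Those of PME41, which fell, and of GAUT1, QUA1 and PMR6, which rose, were all lost without ka120 pad4 replicate 3 (adjusted p = 0.103, 0.0731, 0.150 and 0.166), ka120 pad4 replicate 1 (0.149, 0.0560, 0.0804 and 0.109) or ka120 replicate 2 (0.109, 0.0687, 0.153 and 0.166). PME41, QUA1 and PMR6 were also lost without ka120 replicate 1 (0.134, 0.118 and 0.148). In addition, PME41 was lost without Col-0 replicate 1 (0.0566) or ka120 ndr1 replicate 2 (0.0509). QUA1 was lost when any 1 library other than Col-0 replicate 2 was left out (0.0519 to 0.153), and PMR6 when any 1 other than ka120 replicate 3 or ka120 pad4 replicate 2 was left out (0.0503 to 0.166). In ka120 ndr1 against ka120, 0 of 13 passed in edgeR with a median of 0.08. There, 4 genes (GAUT1, PME2, PME41 and PMR6) had an unadjusted p under 0.05 in edgeR, beside 5229 of all 22351 genes. DESeq2 called 3 of the 13, beside 2576 of the 22119 genes it tested, and limma called 1. No list was tested as a set.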

How the data were processed

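Per the labels' protocols, strand-specific libraries were made from total RNA of rosette leaves, and per the series design text they were sequenced as read pairs of 150 bases. Per the submitters' processing notes, the tools were HISAT2 2.0.4 and HTSeq 0.6.1p1 and the build was TAIR10. The sources used here do not give their roles. The count table the authors deposited was taken to hold estimated counts for 34262 genes, although all values were whole, so rounding changed nothing. Between 45.7% and 48.1% of values from 4 to 40 in a library were multiples of 4, for a reason that is not known. A table of log2 values the authors deposited covered 22605 genes. It held the log2 of the count plus 0.5 over a library constant and served for 1 alternative.

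The test was edgeR's quasi-likelihood F test (edgeR 4.0.16 in R 4.3.3), after TMM scaling and the filterByExpr filter, on 22351 genes. All 12 libraries entered 1 fit with a term for each genotype (8 residual degrees of freedom), p-values were adjusted by Benjamini-Hochberg over all tested genes, and an adjusted p under 0.05 was a call. Approximate SEs divide the absolute log2 fold change by the root of F. Alternatives used DESeq2 1.42.0, limma 3.58.1, other size factors and filters, counts divided by 4, the 2 groups alone, no organelle genes, a replicate block, and each library left out, 22 in all. Likeness was Pearson's r of log2 CPM with a prior count of 2.

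The RefSeq TAIR10.1 reference matched 32548 identifiers and left 1714 unmatched. It gave the coordinates, exon lengths and sequences, and coding sequences were aligned with MAFFT 7.526. The annotation used for counting is not known here, so lengths may differ from those behind the counts. KA120 was taken as AT3G08960 from general knowledge.

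The 5 genes and the gene lists were chosen with earlier results of these data known. Named from each list were the 4 called members with the largest change in ka120, along with RFO1, GRP3, KAPP, MPK3, MPK6 and RBOHD, the neighbours of the cluster and the 3 genes most like each WAK gene. WAKL8, WAKL9, WAKL10, WAKL14, WAKL21, CPK5, CPK11, OGOX2, the vacuolar invertase gene, PGIP1, GAUT1, QUA1, PMR6, PMEPCRA, THE1 and PME3 were named after their values were seen. The same holds for the single markers SCR, SHR, WOX5, COBL9, RHD6, PI, AG, AP3, AP1, FAMA, MYB60, HT1, KAT1, SUC2, AHA3 and APL.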

Additional observations from a re-analysis of the deposited data

Results flagged for a closer look

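Among the WAK-like and pectin genes, 2 differed between the double mutants when ka120 pad4 was tested directly against ka120 ndr1. WAKL8 was lower in ka120 pad4, at 23.7 ± 6.42 against 44.1 ± 7.90 CPM (log2 fold change -0.90 ± 0.17, edgeR adjusted p = 0.0229), and kept the call in 18 of 22 alternative settings, with the highest adjusted p, 0.113, when only these genotypes were fitted. It was lost there and without ka120 pad4 replicate 3 (0.0545) or ka120 ndr1 replicate 2 (0.0939) or 3 (0.0565). PME3, a pectin methylesterase, was higher in ka120 pad4, at 67.3 ± 6.30 against 46.0 ± 5.69 CPM (0.55 ± 0.09, adjusted p = 0.0121), and kept the call in 19 of 22, with the highest adjusted p at 0.0765 and losses without ka120 pad4 replicate 3 (0.0563) or ka120 ndr1 replicate 2 (0.0613). No WAK gene passed the test in that comparison.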

How the results depend on the processing

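Higher WAK1, WAK2 and WAK3 in each mutant against Col-0 kept direction and call in all 22 alternatives, with log2 fold changes in ka120 of 3.14 to 3.50, 1.87 to 2.12 and 5.97 to 7.26. The contrasts with ka120 were less stable. In ka120 pad4 the count of WAK genes called was 2, and 1 with DESeq2 or limma on the deposited values (WAK3 lost), or with upper quartile factors, no filter or only the 2 groups (WAK2 lost), and 0 to 3 when 1 library was left out. In ka120 ndr1 it was 0, and 1 (WAK3) with only the 2 groups (adjusted p = 0.0305) or counts divided by 4 (0.0291), and 0 to 1 when 1 library was left out. The causes were not tested.

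The labels do not say whether replicate numbers pair the samples. Over all tested genes, the correlation of deviations between same-numbered libraries was low, at -0.0546 to 0.106, which does not settle whether samples were paired. With a replicate block the count in ka120 ndr1 against ka120 was 1 (WAK3, -1.20, adjusted p = 0.0298), and no other call of WAK1 to WAK5 changed. It ended the calls of QUA1 in ka120 pad4 against ka120 (0.0660), WAKL10 in ka120 pad4 against Col-0 (0.0610), and WAKL18 and WAKL21 in ka120 ndr1 against Col-0 (0.0742 and 0.0555).

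Signs of uncalled changes turned as follows. With 1 library left out, RFO1 in ka120 ran from -0.036 (Col-0 replicate 2 left out) to 0.189, with -0.00831 for ka120 replicate 2, and MPK6 ran from -0.072 to 0.0739 (ka120 replicate 3), with 0.0152 for Col-0 replicate 3. WAK4 in ka120 ndr1 became -0.906 against ka120 and -0.724 against Col-0 with limma, and ran from -0.158 (ka120 ndr1 replicate 2) to 0.998 against ka120 with a library left out, with -0.0606 for ka120 replicate 2. In ka120 pad4 against ka120 ndr1, WAK3 ran from -0.411 to 0.106 (ka120 pad4 replicate 1), with 0.0744 for ka120 ndr1 replicate 2, and WAK4 from -0.0228 (ka120 ndr1 replicate 1) to 1.13. WAK4 could not be tested at a mean of at least 1 CPM, and passed in ka120 pad4 against Col-0 with only the 2 groups fitted (0.0362).

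Counts over all genes moved by more than 1.5 times in 3 comparisons. In ka120 pad4 against ka120, 4072 became 2634 with only the 2 groups and 1885 to 4764 with a library left out. In ka120 ndr1 against ka120, 1327 became 2576 with DESeq2 and 136 to 2232 with a library left out. Between the double mutants, 535 became 1495 with DESeq2, 76 with only the 2 groups and 150 to 934 with a library left out. Without division by length, WAK1 held 50.1% and WAK2 48.7% in Col-0, and 65.2% and 25.7% in ka120. Counts of WAK4 and WAK5 were 0 to 51.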
